A study of Homo sapiens with 6 samples.

Results

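SMAD4, MYC, GATA6, FOXA1, FOXA2, ELF3 and KLF5 are genes that mark the genetics and the cell identity of pancreatic ductal adenocarcinoma (PDAC). They were taken by gene symbol from the 53826 entries of each expression file, in which each of the 7 symbols occurs 1 time, so all 7 members were found. The libraries were made from PK-1 and Panc-1, established human PDAC cell lines, each of which was left as the control or was exposed for 24 h to RARγi-1 (LY2955303) or RARγi-2 (MM11253), antagonists of retinoic acid receptor γ (RARγ). There was 1 mRNA library for each of the 6 conditions, so each comparison sets 1 library against 1 with no replicate, and no p-value is given. The dose of each inhibitor and the vehicle of the controls for the RNA-seq were not given in the sources used here, and the treatment entry of both RARγi-2 libraries reads RARγi-1, so those libraries were assigned by their titles. The study lists a copy number alteration of SMAD4 for PK-1 and none for Panc-1.

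SMAD4 is the shared partner of the receptor-activated SMADs in TGFβ and BMP signalling and a tumour suppressor that is often lost in PDAC, and MYC is a transcription factor that drives ribosome production and growth. GATA6, FOXA1 and FOXA2 are transcription factors of the endoderm from which the pancreas forms, and GATA6 is widely used as a marker of the classical subtype of PDAC. ELF3, an ETS factor, and KLF5, a Krüppel-like factor, are transcription factors of epithelial cells.

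FOXA1, ELF3 and KLF5 were the members at or next to the floor of the files in Panc-1, and the RefSeq sequence just before their start sites is therefore shown first (GRCh38.p14, 250 bases that end at the base before the start, in the direction of transcription). The promoter table held windows for 5 of the 7 members and did not hold FOXA2 or MYC. Capitals mark TATAAA, the letters of a TATA box, wherever they lie, a GC box (GGGCGG, or CCGCCC where it lies on the other strand) and the nuclear receptor half-site variant GGTTCA. The windows are, in order, ELF3 at chr1:202010337-202010586 on the plus strand, FOXA1 at chr14:37595250-37595499 on the minus strand, and KLF5 at chr13:73054726-73054975 and chr13:73058755-73059004, both on the plus strand.
ELF3: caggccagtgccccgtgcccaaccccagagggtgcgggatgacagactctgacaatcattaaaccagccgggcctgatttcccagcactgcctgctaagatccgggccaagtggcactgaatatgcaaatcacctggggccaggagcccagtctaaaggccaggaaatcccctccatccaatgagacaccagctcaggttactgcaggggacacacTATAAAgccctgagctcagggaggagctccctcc
FOXA1: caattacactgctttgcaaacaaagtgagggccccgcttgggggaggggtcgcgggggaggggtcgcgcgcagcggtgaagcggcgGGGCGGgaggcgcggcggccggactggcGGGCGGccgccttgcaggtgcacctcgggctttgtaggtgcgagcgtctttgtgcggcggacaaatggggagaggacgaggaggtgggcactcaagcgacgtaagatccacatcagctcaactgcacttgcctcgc
KLF5, outer start: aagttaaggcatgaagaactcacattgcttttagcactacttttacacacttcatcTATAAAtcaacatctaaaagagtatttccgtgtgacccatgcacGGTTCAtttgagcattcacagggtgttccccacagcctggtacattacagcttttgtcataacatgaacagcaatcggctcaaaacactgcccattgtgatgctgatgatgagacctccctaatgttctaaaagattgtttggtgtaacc
KLF5, inner start: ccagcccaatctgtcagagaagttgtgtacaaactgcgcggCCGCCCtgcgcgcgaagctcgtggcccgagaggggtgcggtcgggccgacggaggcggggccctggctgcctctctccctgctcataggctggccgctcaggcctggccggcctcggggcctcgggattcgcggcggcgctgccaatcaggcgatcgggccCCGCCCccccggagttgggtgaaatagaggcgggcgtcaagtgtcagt

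The windows of the 3 genes differed in base composition. The ELF3 window had 58.4% G and C, next to the median of 58% over 35116 promoters, but only 4 CpG pairs, a ratio of 0.19 of observed to expected CpG against a median of 0.56. Its TATAAA lay 29 to 34 bases before the start. By contrast, the FOXA1 window was 67.2% G and C with 26 CpG pairs (ratio 0.98) and 2 GC boxes. The windows of KLF5 differed from each other. The outer one was 40.8% G and C with 3 CpG pairs (ratio 0.29) and held GGTTCA and, 189 to 194 bases before the start, TATAAA. The inner one was 70.8% G and C with 27 CpG pairs (ratio 0.87) and held 2 GC boxes. The SMAD4 window at chr18:51029963-51030212 was 68.4% G and C with 25 CpG pairs and 2 GC boxes, and the GATA6 window at chr18:22169339-22169588 was 64.4% G and C with 16 CpG pairs and none of the motifs.

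Both strands were searched for 9 motifs, and the matches in these windows did not overlap each other. The half-site AGGTCA was in 0 of the 6 windows and in 12.1% of all promoters, and GGTTCA was in 1 window and in 7.16% of promoters. TATAAA was in 2 windows and in 10.7% of promoters, and GGGCGG was in 3 windows and in 42.6%. The E-box CACGTG, the AP-1 site TGACTCA, the C/EBP-ATF composite TTGCATCA, the CRE TGACGTCA and the GATA site AGATAA were in 0 windows and in 6.34%, 4.20%, 0.772%, 1.65% and 9.17% of promoters. A match is a stretch of letters and not a measured binding site.

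The files give log2 of TPM, a level scaled for transcript length and to the same total in each library, and no value lies under 1 TPM. A gene at this floor is described here as listed at the floor and not as absent. The translation factors EIF4E and EIF4A1, which growing cells use, were also listed at the floor in all 6 libraries, and so was PPAN, genes named after their values were seen. Between 13149 and 13652 entries per library lay above the floor, and read depth was unknown.

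The lines were checked against marker genes. All 8 epithelial markers, such as EPCAM and CDH1, were above the floor in each PK-1 library, with a summed level of 14320 to 23020 TPM. In Panc-1, 2 of the 8, CDH1 and ESRP1, were at the floor in every library, and the sum was 8480 TPM in the control, 1878 TPM under RARγi-1 and 1567 TPM under RARγi-2. KRT8, KRT18 and KRT19 made up most of that sum and fell with each inhibitor. CLDN4, at 62.9, 94.5 and 83.0 TPM in the same libraries, did not fall, and EPCAM was at 13.4, 19.4 and 9.18 TPM. The 9 mesenchymal markers summed to 95.7 to 165 TPM in PK-1 and to 3994 to 6483 TPM in Panc-1, where VIM made up most of the sum. They did not all go the same way, since 5 were lower in PK-1 Control than in Panc-1 Control and 2 were higher. The 2 were SNAI2, at 46.7 TPM in PK-1 Control and 1.45 TPM in Panc-1 Control, and FN1, at 5.15 TPM and the floor. These 2 and 4 of the 5 were under 5 TPM in the control of one line. The minimum of 5 TPM used for all comparisons below thus fixed their direction. The 10 leukocyte, endothelial and fibroblast markers summed to 2.75 TPM at most, and the acinar protease gene PRSS1 was the only one of 7 acinar and endocrine markers above the floor, at 1.06, 11.1 and 21.2 TPM in PK-1 Control, RARγi-1 and RARγi-2. The part of these marker levels in the results below was not tested.

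The lines differed in which of the 7 genes were listed above the floor. SMAD4 was listed at the floor in all 3 PK-1 libraries and at 4.85 to 7.62 TPM in Panc-1, whereas FOXA1 and ELF3 were listed at the floor in every Panc-1 library and read above it in every PK-1 library. MYC and FOXA2 were well above the floor in both lines. In the bulk RNA of a culture, fewer cells that express a gene and less of its RNA per cell cannot be told apart, and a floor value may also be a failed estimate, which was not tested.

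**Figure D1:**
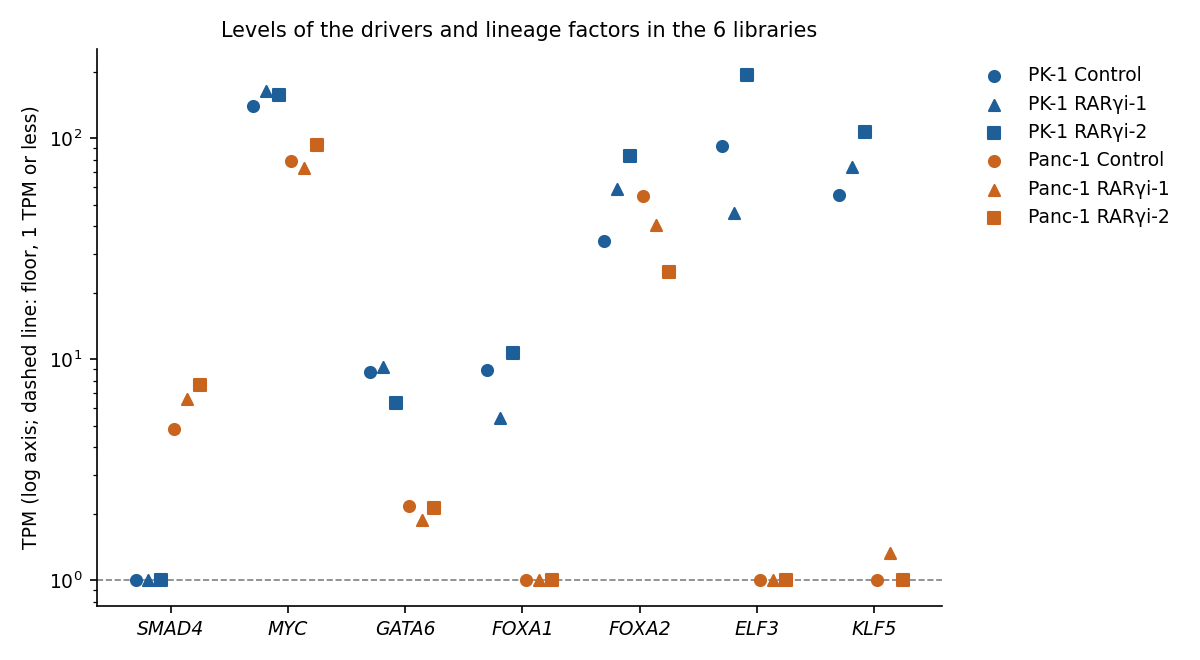
TPM of the 7 members in the 6 libraries on a log axis, with 1 point per library, colour for the cell line, marker shape for the treatment and a dashed line at the floor of 1 TPM. PK-1 and Panc-1 points are apart for SMAD4, MYC, GATA6, FOXA1, ELF3 and KLF5 and overlap for FOXA2.

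In PK-1 Control the order of the levels was MYC at 139 TPM, ELF3 at 92.6, KLF5 at 55.1, FOXA2 at 34.1, FOXA1 at 8.94 and GATA6 at 8.74, with SMAD4 at the floor. FOXA1 and GATA6 were the closest neighbours in this order, 0.03 apart on the log2 scale. The spread of a fold change in PK-1 was 0.41 on that scale, taken from the difference between the RARγi-2 and RARγi-1 libraries. It is for the same gene in different libraries and does not measure how well genes of 1 library are told apart. With RARγi-2 the order changed at the top, where ELF3 (194 TPM) stood next to MYC (156 TPM), 0.31 apart. In Panc-1 Control the order was MYC at 78.4 TPM, FOXA2 at 54.6, SMAD4 at 4.85 and GATA6 at 2.16, with KLF5, FOXA1 and ELF3 at the floor. Neighbouring pairs above the floor there were 0.51 or more apart on the log2 scale. The spread of a fold change in Panc-1, taken in the same way and with the same limit, was 0.32.

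For each comparison, log2 of (TPM + 1) in the first library over (TPM + 1) in the second was taken, a gene was compared where at least 1 of the 2 libraries reached 5 TPM, and it was called where it differed by more than 2-fold. A gene under 5 TPM in 1 of the 2 libraries is compared only through the other, and the minimum then fixes its direction. Between the controls, 34.1% of all 11441 entries compared were called, 16.4% higher in PK-1 and 17.7% lower. Of the 7 members 6 reached 5 TPM, and 4 of these, GATA6, FOXA1, ELF3 and KLF5, were called. All 4 were higher in PK-1 and under 5 TPM in Panc-1 Control, so they were compared only through PK-1 and their shared direction was fixed by the minimum. With RARγi-1 in both lines 6 of 7 members were called, against 35.3% of all entries, and with RARγi-2 again 6 of 7, against 37.2%. Among those called, GATA6, FOXA1, ELF3 and KLF5 were again under 5 TPM in Panc-1, and SMAD4 was at the floor in PK-1. Their directions were thus fixed by the minimum here too, and the counts are given only as a description. The members not called were FOXA2 under RARγi-1 and MYC under RARγi-2. These last comparisons were added after the values had been seen. The member that joined under both inhibitors with its level lower in PK-1 was SMAD4, which at 4.85 TPM in Panc-1 Control had been just under the minimum.

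SMAD4 was read at 4.85 TPM in Panc-1 Control, 6.59 TPM under RARγi-1 and 7.62 TPM under RARγi-2. All 3 PK-1 libraries were listed at the floor, so the lines did not overlap. The Panc-1 changes were 0.38 with RARγi-1 and 0.56 with RARγi-2 on the log2 scale, above the spread of 0.32 and short of 2-fold. After median-of-ratios rescaling the change with RARγi-1 was 0.298, under that spread. Without rescaling, 53.6% of all entries compared in Panc-1 with RARγi-1 and 45.8% with RARγi-2 were at least as far from 0 as SMAD4. Of 9446 entries at or above the lowest Panc-1 level of SMAD4 in every Panc-1 library, 195 (2.06%), SMAD4 included, were at the floor in every PK-1 library.

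SMAD4 lies at chr18:51030213-51085042, and its chromosomal neighbours were read to see whether they shared its pattern, a set chosen after SMAD4 had been seen. Of the 6 nearest protein-coding genes with an entry on each side, 7 were above the floor in all 3 PK-1 libraries, 4 (MAPK4, MRO, DCC and STARD6) were at the floor in all 6 libraries, and 0 were at the floor in PK-1 and above it in Panc-1. ELAC1, the nearest upstream, a tRNA processing enzyme, was at 5.61, 6.45 and 6.14 TPM in PK-1 Control, RARγi-1 and RARγi-2. MEX3C, the nearest downstream, an RNA-binding ubiquitin ligase, was at 13.2, 21.6 and 18.9 TPM in the same libraries. On both sides of SMAD4, then, the next gene was expressed in PK-1 at a level at least as high as in the Panc-1 library of the same treatment. The remaining neighbour, C18orf54, was at the floor in PK-1 RARγi-2 alone.

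**Figure D2:**
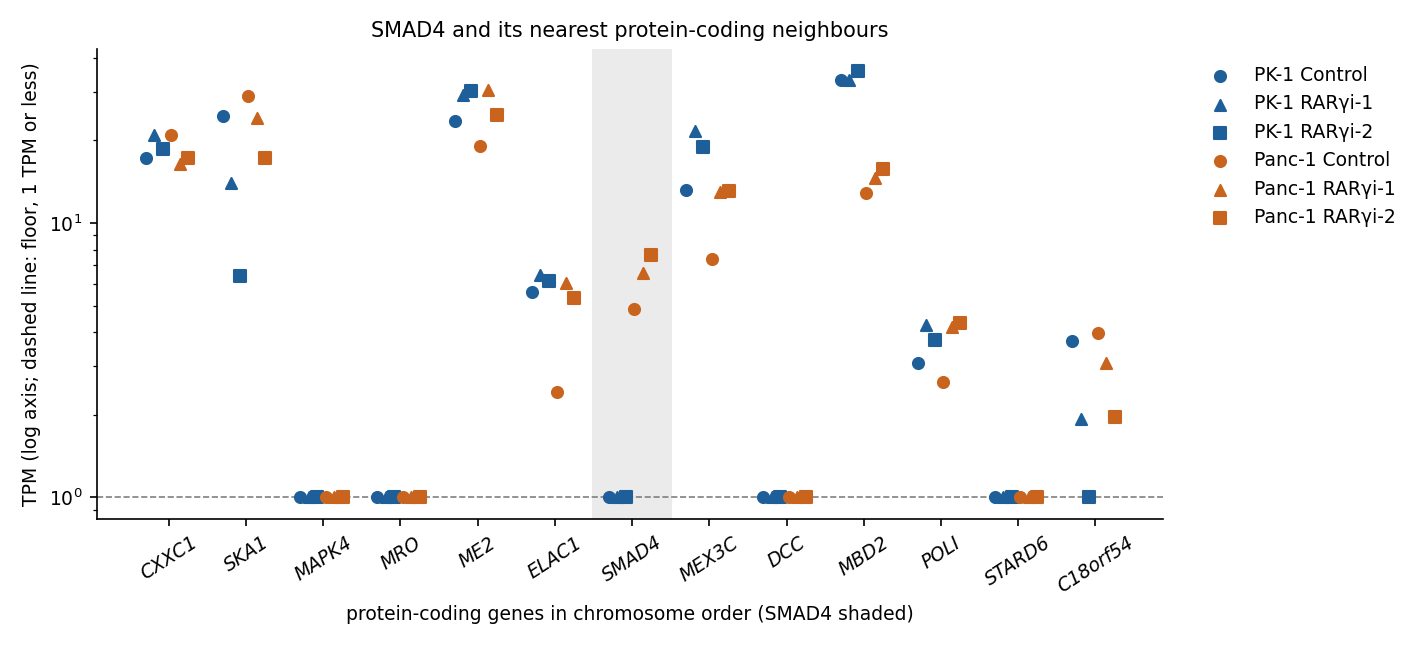
TPM on a log axis for SMAD4 (shaded) and the 6 nearest protein-coding genes with an entry on each side, in chromosome order, with 1 point per library and a dashed line at the floor. SMAD4 is the gene of the 13 whose PK-1 points are all at the floor while its Panc-1 points, 4.85 to 7.62 TPM, are above it.

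The partners of SMAD4 were measured in both lines. Of 20 genes for SMADs, TGFβ and BMP receptors, ligands and inhibitors, 17 were compared between the controls, 2 (TGFBR2 and TGFB1) were higher in PK-1 and 3 (SMAD6, TGFB3 and SKI) were lower. Over all entries 16.4% were higher and 17.7% lower. SMAD6 and TGFB3 were under 5 TPM in PK-1 Control, so the minimum fixed their direction. SMAD3, which carries the TGFβ signal with SMAD4, was at 134, 157 and 143 TPM in PK-1 Control, RARγi-1 and RARγi-2 and at 158, 82.4 and 68.0 TPM in Panc-1. ACVR1, a BMP type I receptor, rose past 2-fold with each inhibitor in each line, and was at 12.6, 31.1 and 36.4 TPM in PK-1 and at 22.0, 56.4 and 56.6 TPM in Panc-1, control first. It was the only gene of the list that rose past 2-fold in any of the 4 treated comparisons. The ligand gene TGFB2, named after its values were seen, was at 8.32 TPM in PK-1 Control and 8.33 TPM in Panc-1 Control and at 1.11 TPM or less in the treated libraries, and it was the only gene called lower in PK-1. In Panc-1, 3 genes (SMAD6, TGFB2 and TGFB3) were lower with RARγi-1 and 5 with RARγi-2, where SMAD3 and the inhibitory SMAD7 joined them. Of these, SMAD3 alone was at 5 TPM or more in both libraries compared. The others, and TGFB2 in PK-1, were under 5 TPM after treatment, so the minimum fixed their direction.

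Genes that TGFβ and BMP commonly act on through SMAD4 were called lower more often than higher in both lines, including PK-1, where SMAD4 itself was at the floor. The minimum fixed the direction of some of them, named below. Of 15 listed, 14 were in the files. In PK-1, 4 of the 11 compared were lower and 2 higher with RARγi-1 (median change -0.58 on the log2 scale, against 0.14 over all entries), and 6 of 10 were lower and 1 higher with RARγi-2 (median -1.35, against -0.01). That last median was -0.22 with no minimum level. In Panc-1, 6 of 12 were lower and 1 higher with RARγi-1 (median -1.17, against 0.08), and 8 of 12 were lower and 0 higher with RARγi-2 (median -1.29, against -0.04). Some of the genes called lower were under 5 TPM after treatment, so the minimum fixed their direction. They were COL4A1 with each inhibitor and LTBP2 and COL4A2 with RARγi-2 in PK-1, and SMAD7 and CDH2 with RARγi-2 in Panc-1. These were named after their values were seen. TGFBI, an extracellular matrix protein, fell in all 4 comparisons, with 651 TPM in PK-1 Control against 108 and 82.6 TPM after treatment and 348 TPM in Panc-1 Control against 88.2 and 66.7 TPM. ID3, an inhibitor of helix-loop-helix factors, fell likewise, with 24.6 TPM in PK-1 Control against 10.8 and 5.27 TPM, and 262 TPM in Panc-1 Control against 102 and 77.4 TPM. BHLHE40, a helix-loop-helix repressor, was among the genes called higher with each inhibitor in PK-1 and with RARγi-1 in Panc-1. The all-entry shares for these counts, and for the treated counts of every other list, are given with the members of each comparison below.

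With RARγi-1 in PK-1, 16.3% of 11059 entries were called, 10.5% higher and 5.78% lower. Of the 6 members compared 1 was called, ELF3, which was lower, and the median change of the 6 was 0.15 against 0.14 over all entries. With RARγi-2 in PK-1, 29.0% of 11057 entries were called, 14.1% higher and 14.9% lower. There 2 of the 6 members, FOXA2 and ELF3, were called, both higher, and the median of the 6 was 0.58 against -0.01. In Panc-1, 15.7% of entries were called with RARγi-1, 8.50% higher and 7.18% lower, and 0 of the 3 members compared (SMAD4, MYC and FOXA2). With RARγi-2 in Panc-1, 23.2% of entries were called, 9.95% higher and 13.2% lower, and 1 of 3 members, FOXA2, was called and was lower. With so few members compared, these counts are read against the shares of the whole table only as a description, and the members are taken singly.

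**Figure D3:**
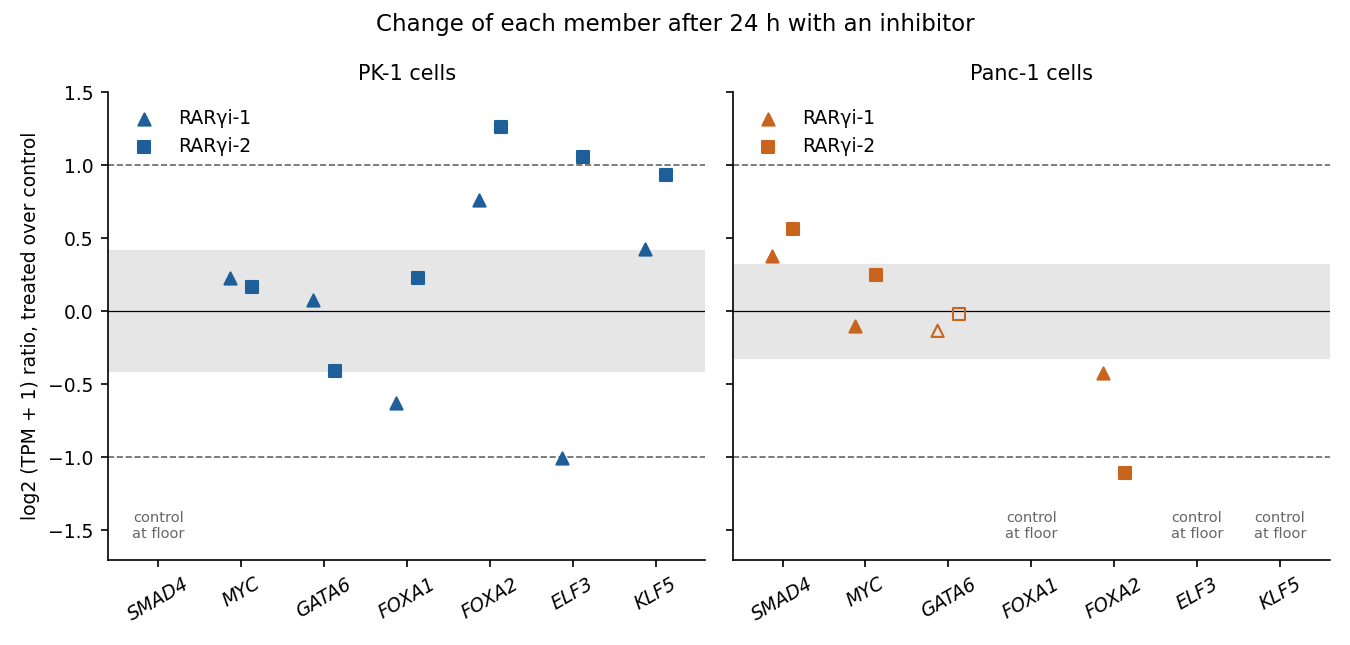
Change of each member on the log2 (TPM + 1) scale (left panel PK-1, right panel Panc-1), with triangles for RARγi-1 and squares for RARγi-2, open where neither library reached 5 TPM, dashed lines at 2-fold and a grey band of 1 spread of a fold change either side of 0 (0.41 in PK-1, 0.32 in Panc-1). FOXA2 lies above 0 in PK-1 and below 0 in Panc-1, and the ELF3 points in PK-1 lie on both sides of 0, at -1.003 and 1.06.

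MYC differed little within either line. It was at 139 TPM in PK-1 Control, 163 TPM under RARγi-1 and 156 TPM under RARγi-2, and at 78.4, 73.2 and 93.4 TPM in the Panc-1 libraries in the same order. Every PK-1 library was above every Panc-1 library, with the controls 1.78-fold apart (0.82 on the log2 scale), short of the 2-fold limit. The 4 changes with treatment lay between -0.10 and 0.25, inside the spread of each line. The highest level of MYC was 1.17 times the lowest in PK-1 and 1.28 times in Panc-1.

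The listed targets of MYC moved apart from MYC itself in PK-1. Of 40 target genes, most of them for ribosome assembly, nucleolar proteins and growth metabolism, 37 were compared, and 18 were lower and 0 higher with RARγi-1 in PK-1 (median -0.95), against 5.78% of all entries lower. With RARγi-2 in PK-1, 31 of 37 were lower and 0 higher (median -1.61), against 14.9%. Of the 31, UTP20 and SLC19A1, the latter named after its values were seen, were under 5 TPM after treatment, so the minimum fixed their direction. In Panc-1, 2 of 37 (LDHA and UTP20) were lower with RARγi-1 (median -0.31) and 5 (LDHA, NOP56, RRS1, UTP20 and TCOF1) with RARγi-2 (median -0.29), and 0 were higher with either, against 7.18% and 13.2% of all entries lower. TCOF1, a nucleolar factor of rRNA synthesis, was at 151 TPM in PK-1 Control, 44.7 TPM under RARγi-1 and 20.8 TPM under RARγi-2. UTP20, part of the machinery that processes small-subunit rRNA, fell in both lines, where the controls had 22.6 TPM (PK-1) and 20.3 TPM (Panc-1) and the treated libraries 5.53 and 3.43 TPM and 9.56 and 8.41 TPM. TMEM97, a sterol-regulated membrane protein, was at 78.6, 29.2 and 12.1 TPM in the PK-1 libraries in the same order. Between the controls the list was nearly level, with a median of 0.06, 2 genes (AHCY and TMEM97) higher in PK-1 and 3 (FBL, SRM and NDUFAF4) lower.

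**Figure D4:**
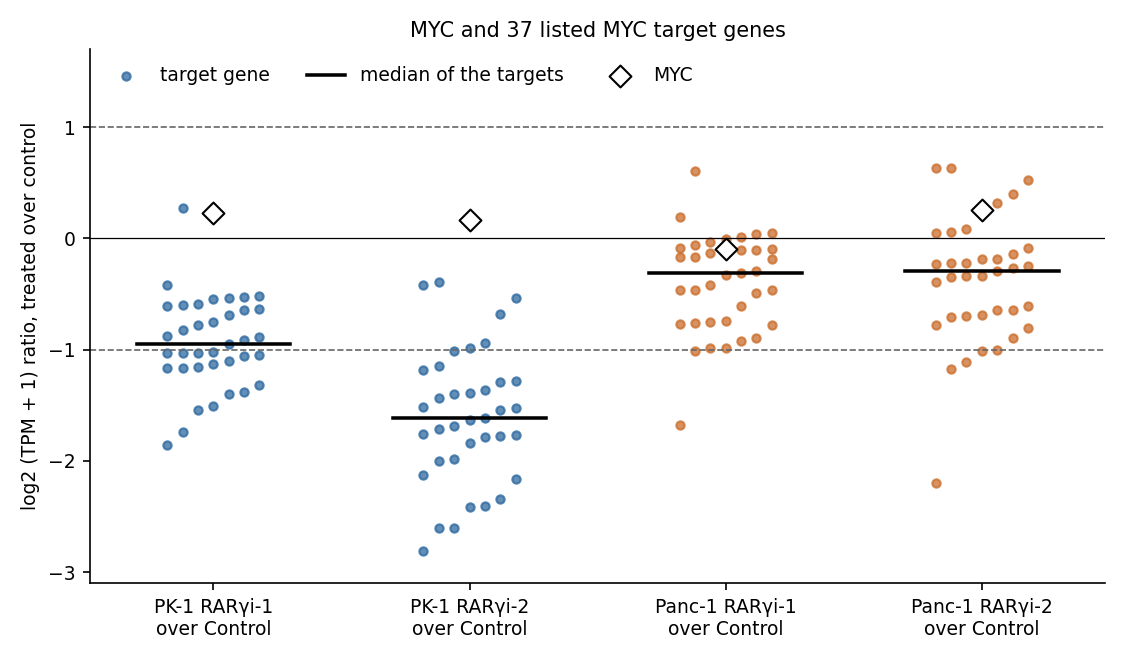
Change with treatment on the log2 (TPM + 1) scale of MYC (diamond) and of the 37 listed MYC target genes compared (dots, horizontal bar at their median) in each of the 4 treated comparisons, with dashed lines at 2-fold. In PK-1 the medians of the targets are -0.95 and -1.61 while MYC is at 0.23 and 0.16, and in Panc-1 the medians are -0.31 and -0.29.

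Of the 14 genes that share MAX, regulate MYC or belong to the same network, 11 were compared in PK-1 with each inhibitor, and 2 rose past 2-fold with each, MXD1 and MXD4, both repressors that pair with MAX. MXD1 was at 12.0 TPM in PK-1 Control, 103 TPM under RARγi-1 and 146 TPM under RARγi-2, and at 4.64, 32.3 and 35.0 TPM in Panc-1, so that every treated library stood above both controls. MXD4 was at 6.46, 23.8 and 31.6 TPM in PK-1 and at 13.8, 11.4 and 20.8 TPM in Panc-1. Over all entries of PK-1, 10.5% were higher with RARγi-1 and 14.1% with RARγi-2. In Panc-1 the genes past 2-fold were MXD1, MXI1 and MYCL with RARγi-1 (3 of 11) and MXD1 and MAX with RARγi-2 (2 of 10). The all-entry shares called higher there were 8.50% and 9.95%. MXD1 and MYCL were under 5 TPM in Panc-1 Control, so the minimum fixed their direction with treatment. Of the network genes, 0 were called lower in any treated comparison, which is given only as a description with so few compared. Between the controls, MXD1 and MLX were higher and ZBTB17 lower in PK-1 (11 compared), against 16.4% of all entries higher and 17.7% lower. The direction of MXD1, under 5 TPM in Panc-1 Control, was fixed by the minimum.

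GATA6 was higher in PK-1 than in Panc-1 and was not called with either inhibitor. It was at 8.74 TPM in PK-1 Control, 9.26 TPM under RARγi-1 and 6.35 TPM under RARγi-2, and at 2.16, 1.88 and 2.12 TPM in Panc-1. The lines did not overlap, and the controls were 4.04-fold apart in TPM, or 1.62 on the log2 (TPM + 1) scale. The change of -0.41 with RARγi-2 in PK-1 was about as large as the spread of that line. The Panc-1 levels were under 5 TPM in every library, so no treated comparison was made there.

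FOXA1, a pioneer factor that opens chromatin for other regulators, was read in PK-1 alone. Its levels there were 8.94 TPM in the control, 5.45 TPM under RARγi-1 and 10.6 TPM under RARγi-2, changes of -0.63 and 0.22 on the log2 scale. Both treated libraries of Panc-1 and its control were listed at the floor.

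FOXA2, its close relative, was expressed in both lines and went opposite ways in them. In PK-1 it was at 34.1 TPM in the control, 58.6 TPM under RARγi-1 and 83.2 TPM under RARγi-2. In Panc-1 it was at 54.6, 40.5 and 24.8 TPM in the same order. In PK-1 the control was the lowest library and in Panc-1 the highest, and RARγi-2 lay farther from the control than RARγi-1 in both. The PK-1 changes were 0.76 and 1.26 on the log2 scale and the Panc-1 changes -0.42 and -1.11, of which the RARγi-2 changes passed 2-fold in each line. All 4 were larger than 1 spread of a fold change of their line. The RARγi-1 changes were under 2 such spreads, which are 0.82 for PK-1 and 0.64 for Panc-1. Changes at least as far from 0 as that of FOXA2 were common. They made up 26.4% of the PK-1 entries compared under RARγi-1 and 20.1% under RARγi-2. For Panc-1 the shares were 49.4% and 19.8%.

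The order of the lines for FOXA2 therefore depended on the treatment. Panc-1 Control was 1.60-fold above PK-1 Control, whereas with RARγi-2 PK-1 was 3.35-fold above Panc-1. The mean change was 1.01 in PK-1 and -0.76 in Panc-1, a difference of 1.77. Of 9568 entries compared in all 4 treated comparisons, 648 (6.77%) were higher with both inhibitors in PK-1 and lower with both in Panc-1, and in 93 (0.972%) the difference of the means was at least that of FOXA2.

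Of 22 other pancreas and endoderm factors, PK-1 libraries held 8 above the floor and Panc-1 libraries 14, and 8 were at the floor in all 6 libraries, among them HNF4A and PTF1A. With treatment, 3 were compared in PK-1 and 9 in Panc-1. Between the controls 8 were compared, and the 5 called, PDX1, ONECUT3, GATA4, GATA5 and CDX2, were listed at the floor in PK-1 Control, so they were compared only through Panc-1 and their direction was fixed by the minimum. GATA5, a relative of GATA6, was at 35.7, 32.5 and 29.6 TPM in Panc-1 Control, RARγi-1 and RARγi-2 and at the floor in PK-1 save for 1.14 TPM with RARγi-2. GATA4, another relative, was at 15.6, 15.2 and 11.9 TPM in Panc-1 and at the floor in PK-1. With treatment, 0 were called in PK-1 with RARγi-1 and SOX9 was lower with RARγi-2, and in Panc-1 SOX17 was higher with each inhibitor while SOX9 and ONECUT3 were lower with RARγi-2. SOX17 was under 5 TPM in Panc-1 Control and ONECUT3 in Panc-1 under RARγi-2, so the minimum fixed their direction. SOX9, a factor of ductal cells, was at 40.0, 24.2 and 18.6 TPM in PK-1 and 63.1, 45.7 and 17.6 TPM in Panc-1.

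ELF3 separated the inhibitors in PK-1. It was at 92.6 TPM in the control, 45.7 TPM under RARγi-1 and 194 TPM under RARγi-2, so that the treated libraries lay on either side of the control. The changes were -1.003, just past the 2-fold limit, and 1.06. The RARγi-2 library was 4.24-fold above the RARγi-1 library (2.06 on the log2 scale), and 0.447% of the entries compared between them were as far from 0. In that comparison, which was added after the values had been seen, 6.56% of entries and 1 of 6 members were called, and the doses of the inhibitors are unknown. In Panc-1, where ELF3 was listed at the floor in all 3 libraries, 3.18% of entries and 0 of 3 members were called between the inhibitors. Of 2657 entries that were at least as high as the lowest ELF3 level in every PK-1 library, 66 (2.48%) were at the floor in every Panc-1 library.

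KLF5 was at 55.1 TPM in PK-1 Control, 74.4 TPM under RARγi-1 and 106 TPM under RARγi-2. Both treated libraries were above the control, by 0.43 and 0.93 on the log2 scale, the second just short of the 2-fold limit. In Panc-1 it was listed at the floor in the control and with RARγi-2 and at 1.33 TPM with RARγi-1. The highest Panc-1 level was thus next to the floor and far under the lowest PK-1 level.

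Of 12 KLF relatives of KLF5, 7 or 8 were compared in each treated comparison, and 3 to 5 of these were called higher and 0 lower. Of 8 ETS relatives of ELF3, 5 or 6 were compared, with 0 called in PK-1 and 1 higher and 1 lower with each inhibitor in Panc-1. KLF2 in both lines, KLF11 in PK-1 and KLF4 in Panc-1 were under 5 TPM in the control, so the minimum fixed their direction. Of all 20 ETS and KLF genes, 3 of 13 (KLF4, KLF6 and KLF11) were higher with RARγi-1 and 3 of 14 (KLF2, KLF4 and KLF6) with RARγi-2 in PK-1, against 10.5% and 14.1% of all entries, and 0 were lower. In Panc-1, 4 of 13 (ELF1, KLF4, KLF6 and KLF13) were higher with RARγi-1 and 6 of 13 with RARγi-2, where KLF2 and KLF11 joined them, against 8.50% and 9.95% of all entries, and ETS2 was the 1 gene lower with each. KLF4, a factor of epithelial differentiation, was at 33.8, 158 and 173 TPM in PK-1 Control, RARγi-1 and RARγi-2 and at 2.87, 7.84 and 11.8 TPM in Panc-1. KLF6 was at 41.8, 115 and 228 TPM in PK-1 and at 43.2, 102 and 148 TPM in Panc-1. Between the controls 5 were higher and 4 lower in PK-1 (14 compared), against 16.4% and 17.7% of all entries. Of these, 3 of the 5 and 2 of the 4 were under 5 TPM in the other line, so the minimum fixed their direction. EHF, another ETS factor of epithelial cells, was at 79.9, 111 and 130 TPM in PK-1 and at the floor throughout Panc-1.

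KLF5 also acts in squamous and epithelial programmes, and other factors of these were read too. Of 14 such genes 12 were compared between the controls, and 7, among them TP63, ZBED2 and GRHL2, were higher in PK-1 and 4 (GLI2, TFAP2A, TFAP2C and GATA2) lower. All 7 and 3 of the 4 were under 5 TPM in the other line, so the minimum fixed their direction. TP63, the main factor of squamous epithelium, was at 29.7, 36.5 and 14.4 TPM in PK-1 Control, RARγi-1 and RARγi-2 and at the floor in Panc-1. GRHL2, an epithelial factor, was at 53.2, 39.8 and 26.8 TPM in PK-1 and at the floor in Panc-1. With treatment, 11 were compared in PK-1 and 6 in Panc-1 with each inhibitor. In PK-1, GRHL1 was higher and SOX2 lower with each inhibitor, and with RARγi-2 GRHL3 and OVOL1 were also higher and ZBED2 lower. In Panc-1, GRHL1 was higher with RARγi-1, and TFAP2A, TFAP2C and GATA2 were lower with each inhibitor, joined by GLI2 with RARγi-2. The minimum fixed the direction of SOX2, GRHL3 and OVOL1 in PK-1 and of GRHL1, TFAP2C and GLI2 in Panc-1. Each of these was under 5 TPM in 1 of the 2 libraries compared.

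PDAC is sorted into a classical subtype, to which GATA6 belongs, and a basal-like subtype, and both gene lists were read in the controls. Of 24 basal-like genes, PK-1 libraries held 22 above the floor and Panc-1 libraries 6, and all 20 compared between the controls were higher in PK-1. KRT7, for example, was at 5663 TPM in PK-1 Control and 4.19 TPM in Panc-1 Control, and S100A2 at 1683 and 16.1 TPM. Of 24 classical genes 11 were at the floor in all 6 libraries, and the 4 compared between the controls, TFF1, ANXA10, CEACAM6 and AGR2, were also higher in PK-1. Of these, 16 of the 20 basal-like and 3 of the 4 classical genes were under 5 TPM in Panc-1 Control and were compared only through PK-1, so their direction was fixed by the minimum. The genes at 5 TPM or more in both controls were 4 basal-like genes and 1 classical gene.

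**Figure D5:**
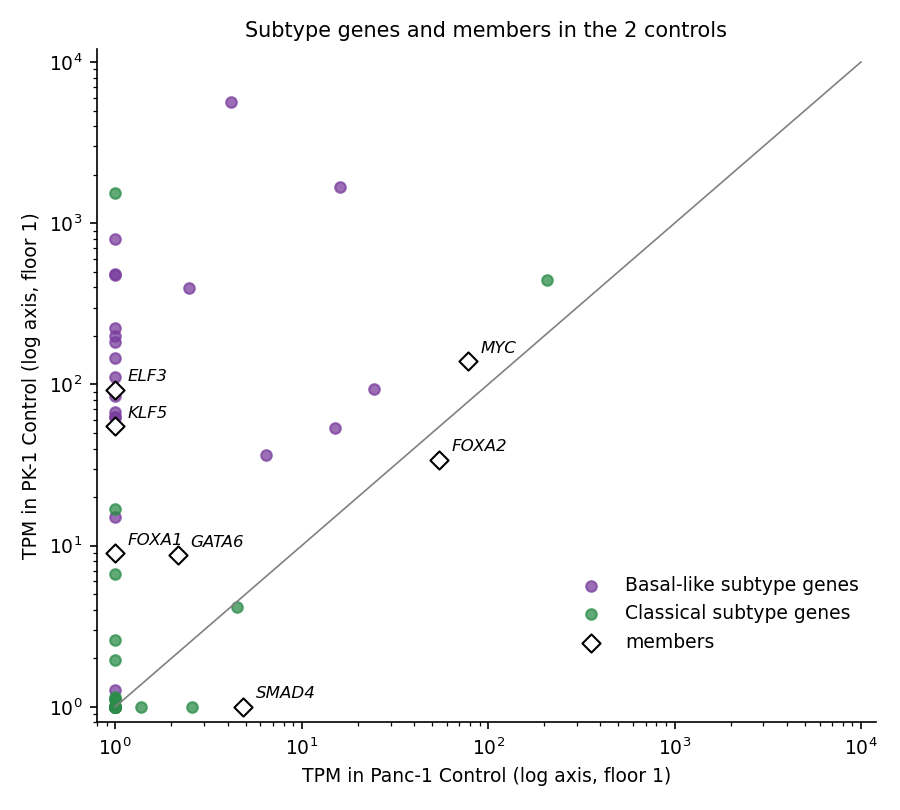
TPM in PK-1 Control against TPM in Panc-1 Control, both on log axes, for the 24 basal-like genes, the 24 classical genes and the 7 members, with a line of equal levels. The 20 basal-like genes compared lie above the line, with ELF3, KLF5, FOXA1, GATA6 and MYC, and FOXA2 and SMAD4 lie under it.

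With treatment in PK-1, 3 of 20 basal-like genes (SPRR1B, AREG and KRT17) were higher and 3 (VGLL1, CST6 and KRT7) lower with RARγi-1. With RARγi-2, 7 of 21 were higher and 4 (VGLL1, CTSV, FGFBP1 and KRT7) lower. Over all entries 10.5% were higher and 5.78% lower with RARγi-1, and 14.1% higher and 14.9% lower with RARγi-2. KRT6A, a squamous keratin named after its values were seen, was at 67.1, 118 and 527 TPM in PK-1 Control, RARγi-1 and RARγi-2. Of the 5 classical genes compared, AGR2 was higher with each inhibitor and ANXA10 with RARγi-2. AGR2, a secretory-pathway protein, was at 445, 3927 and 11302 TPM in PK-1 and at 208, 36.4 and 133 TPM in Panc-1, so its control was the lowest PK-1 library and the highest Panc-1 library, as for FOXA2. In Panc-1, AREG was higher and KRT15 lower with each inhibitor among 5 basal-like genes compared, SLC2A1 was higher and CTSV lower with RARγi-2, and AGR2 was lower with RARγi-1 (3 classical genes compared) and 0 of 2 classical genes were called with RARγi-2. AREG, KRT15 and CTSV in Panc-1 were under 5 TPM in 1 of the 2 libraries compared, so the minimum fixed their direction. The same held for KRT6C, named after its values were seen, among the genes higher with RARγi-2 in PK-1.

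Other entries with the profile of a member were sought by the root mean square difference of log2 (TPM + 1) over the 6 libraries, after each entry was centred on its own mean, among the 12410 entries that reached 5 TPM somewhere. For FOXA2 the nearest were LIN7B, at 0.16, SNCB and CHGB. LIN7B was at 6.72, 15.8 and 16.5 TPM in PK-1 Control, RARγi-1 and RARγi-2 and at 12.4, 10.3 and 5.56 TPM in Panc-1. For ELF3 they were SCEL, at 0.26, TNC and TMPRSS4, of which SCEL, a cornified-envelope protein and a basal-like gene, was at 63.1, 53.7 and 148 TPM in PK-1 and at the floor in Panc-1. For KLF5 they were CYSRT1, at 0.08, the basal-like RNA UCA1 and TNC. For FOXA1 they were SLC22A20, at 0.16, TNIK and DENND2D, and for GATA6 MMP28, at 0.06, TNFSF15 and LOC102724428. The points compared are the same 6 libraries, and the profiles of FOXA1, ELF3 and KLF5 are largely set by the gap between the lines.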

How the data were processed

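RNA-seq libraries (stranded mRNA kit) of PK-1 and Panc-1 cells were analysed, 1 for each of 6 conditions. The authors deposited TPM per gene as log2 values with a floor of 0 (1 TPM or less). The submitters' processing notes name hg38, and the aligner, counter and annotation were not given in the sources used here. TPM keep no read depth, so no interval could be given. Python 3.11.15, pandas 2.3.3 and NumPy 2.4.6 were used. The log2 values were undone, and log2 of (TPM + 1) ratios were taken against the control of the line and between the lines, with a call past 2-fold and at least 5 TPM in 1 of the 2 libraries. Each comparison was of 1 library with 1, and no test was made. As spread, the median absolute deviation of a line's RARγi-2 against RARγi-1 difference was multiplied by 1.4826 and divided by the square root of 2. It includes real differences between the inhibitors and misses variation shared by both treated libraries. The spread of a fold change is this value times the square root of 2. The code was tested on simulated data.

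The 7 members and all gene lists were chosen with earlier results of these data known. Named from the lists were up to 3 genes per direction past 2-fold with at least 10 TPM in 1 library, besides those said to be named after their values were seen and the members of counts of 5 or fewer, which were named in the same way. Some list genes are not reported here by name. Other pseudocounts, fold limits, minimum levels and a median-of-ratios rescaling were tried. Coordinates and promoters are from RefSeq on GRCh38.p14.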

Additional observations from a re-analysis of the deposited data

Results flagged for a closer look

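FOXA2 moved in opposite directions in the lines, higher with both inhibitors in PK-1 (58.6 and 83.2 TPM against 34.1 TPM in the control) and lower with both in Panc-1 (40.5 and 24.8 TPM against 54.6 TPM). The mean log2 fold change in PK-1 minus that in Panc-1 was 1.77. The difference was not tested, since each condition had 1 library and the inhibitors of a line share its control.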

How the results depend on the processing

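With a fold limit of 1.5, 3 members were called with RARγi-1 in PK-1 in place of 1. With a limit of 3-fold, 0 members were called with RARγi-1 in PK-1, 0 with RARγi-2 in PK-1 and 0 with RARγi-2 in Panc-1. The other 21 member counts under these and the remaining alternatives stayed within 1.5 times the reported count, as did all 20 counts over all entries. Of the member fold changes recomputed with another pseudocount or after rescaling, 74 moved by less than the spread, and the 10 that moved further were in the comparison of the controls under the other pseudocounts, where a level is at or near the floor in 1 line (GATA6 2.01 without a pseudocount, against 1.62). Of the list medians, 159 stayed and 21 moved past the spread or the 2-fold limit, among them, with no minimum level, the SMAD4-dependent genes with RARγi-2 in PK-1 (-0.22, against -1.35), and between the controls the classical genes (0.33, against 2.55) and the lineage factors (-0.74, against -1.75). In Panc-1 under RARγi-1, 1 of the 3 classical genes fell under the minimum once rescaled, and the median of the rest was -1.16, against 0.32. Direction was reversed in 0 of the values past 2-fold. Rescaling lowered changes with RARγi-1 in PK-1 by 0.11 on the log2 scale and moved the other comparisons by 0.09 or less. Since each comparison was of 1 library with 1, no library was left out, and no fit over both lines was made. The spread between cultures, read depth and doses are unknown.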
